A study of Mus musculus with 15 samples.

Results

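The ATF4 amino acid response genes are the 31 genes named for this account as targets or partners of ATF4, with Atf4 itself among them. They were found among the 45232 gene IDs of the count table by matching Ensembl IDs to mouse symbols, and all 31 were detected well enough to be tested, among 17834 tested genes. ATF4 is a transcription factor whose own mRNA is translated best when the initiation factor eIF2 is phosphorylated, as happens when amino acids run short, heme is low or the endoplasmic reticulum is stressed. Its targets bring amino acids into the cell, make serine, glycine, asparagine and proline, supply one-carbon units from mitochondria, and end the response by restoring translation. In blood-forming stem and progenitor cells this response has been linked to the control of protein synthesis and to survival under stress.

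RNA-seq had been performed on sorted CD45.2+ LSK cells (lineage-negative, Sca1-positive, c-Kit-positive stem and progenitor cells) from the bone marrow of C57BL/6 mice in 5 groups of 3 libraries each. Vehicle, AG221, Rux and combo were recipients of IDH2-R140Q JAK2-V617F cells, and WT was wild-type marrow. AG221, an inhibitor of mutant IDH2, was given at 40 mg/kg and ruxolitinib, a JAK1 and JAK2 inhibitor, at 60 mg/kg, both by gavage for 21 to 28 days with the last dose about 1.5 h before sacrifice, and combo mice received both. Recipients were irradiated CD45.1 mice, the alleles had been switched on with the interferon-inducible Mx1-Cre, and the sources used here do not state if each library stands for 1 mouse or for several pooled mice, nor if WT cells had been transplanted, so that p-values measure the spread between these libraries.

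The libraries held 18836625 to 32174287 counts, so that 3 counts corresponded to 0.0957 to 0.157 CPM (the count divided by the TMM normalized library total and scaled to a common size). The 11 LSK and stem cell markers, Kit, Ly6a and Cd34 included, were above 3 counts in every library. The replicate names of vehicle, AG221 and Rux begin with A and those of combo and WT with B, and what the letters stand for is not given in the sources used here. The WT libraries had Xist at 455 to 511 CPM and Ddx3y at 0 to 0.101 CPM, whereas the mutant libraries had Xist at 0.365 to 19.5 CPM and Ddx3y at 124 to 206 CPM, so that sex and genotype cannot be told apart. The 9 plasma cell markers summed to 713 to 1556 CPM in WT and to 62.6 to 408 CPM elsewhere. Library AG221 A9 stood apart from AG221 A8 and A10, with chi-square values per degree of freedom of 160 and 124 against 24.1 between the other two, and Rux A16 stood apart from Rux A14 and A17 (113 and 92.0 against 13.9). In cells measured in bulk, fewer cells of a type and less RNA per cell cannot be told apart.

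ATF4 binds a composite DNA element in many of its targets, and the core of this element, TGATGNAA on either strand, was searched in the RefSeq promoter windows (GRCm38.p6; 250 bases before to 50 after the start) of the 27 members that had an entry. Slc7a5, Eif4ebp1, Aldh1l2 and Slc1a5 had none. The core was present in 8 of the 27 members (29.6%) and in 1219 of all 27025 genes with a window (4.51%), which describes these letters and not a bound site. The stretches around each match are shown because this core is the element for which the list is known, written 5′ to 3′ on the strand of the gene with the core in capitals.
Asns, chr6:7693214-7693243, minus strand: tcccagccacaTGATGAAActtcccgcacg
Chac1, chr2:119351038-119351067, plus strand: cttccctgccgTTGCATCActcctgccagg
Nupr1, chr7:126625562-126625591, minus strand: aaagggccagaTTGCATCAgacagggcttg
Pycr1, chr11:120643833-120643862, minus strand: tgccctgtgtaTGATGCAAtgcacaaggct
Slc1a4, chr11:20332699-20332728, minus strand: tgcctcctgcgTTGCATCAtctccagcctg
Slc7a11, first match, chr3:50443661-50443690, minus strand: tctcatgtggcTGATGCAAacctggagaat
Slc7a11, second match, chr3:50443642-50443671, minus strand: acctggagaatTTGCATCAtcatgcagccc
Trib3, chr2:152344028-152344057, minus strand: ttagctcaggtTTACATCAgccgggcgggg
Vldlr, chr19:27216809-27216838, plus strand: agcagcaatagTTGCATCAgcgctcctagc

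The match began 23 bases before the RefSeq start in Asns, 103 in Pycr1, 110 in Nupr1, 193 in Chac1 and 200 in Vldlr, and Slc7a11 held a pair of matches at 66 and 47 bases before it. In Slc1a4 the match lay across the RefSeq start and in Trib3 it lay after it. These positions hold for the RefSeq start only. By the gene bounds of GENCODE M21 the matches of Asns, Nupr1 and Vldlr lay inside the gene and that of Trib3 before it. The cyclic AMP response element TGACGTCA, which is bound by CREB and by ATF family dimers, was found in a single member, Ppp1r15a, 12 bases before its start, and in 549 of all windows (2.03%). It is shown because Ppp1r15a had the largest called change of the list.
Ppp1r15a, chr7:45526262-45526291, minus strand: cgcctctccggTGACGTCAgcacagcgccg

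Levels per transcript length, in TPM (length-scaled counts that sum to the same total in each library), set the most abundant members apart from those near the detection limit. In WT cells the highest was Phgdh, the first enzyme of serine synthesis, at a mean of 442 TPM, followed by Shmt2, which moves a carbon unit from serine to folate in mitochondria, at 247 TPM, Slc38a2, a sodium-coupled transporter of neutral amino acids, at 205.0 TPM, and Atf4 at 194 TPM. In vehicle cells Phgdh was again highest at 611 TPM, and Ppp1r15a came next at 479 TPM. Atf5, Aldh1l2, Slc7a11, Slc6a9, Chac1 and Stc2 had means from 0.12 to 2.30 TPM in every group. Stc2 had 3 counts or fewer in 3 libraries, Aldh1l2 in 2 and Chac1 in 1, so that modest changes of these genes were not detectable at this depth.

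**Figure D1:**
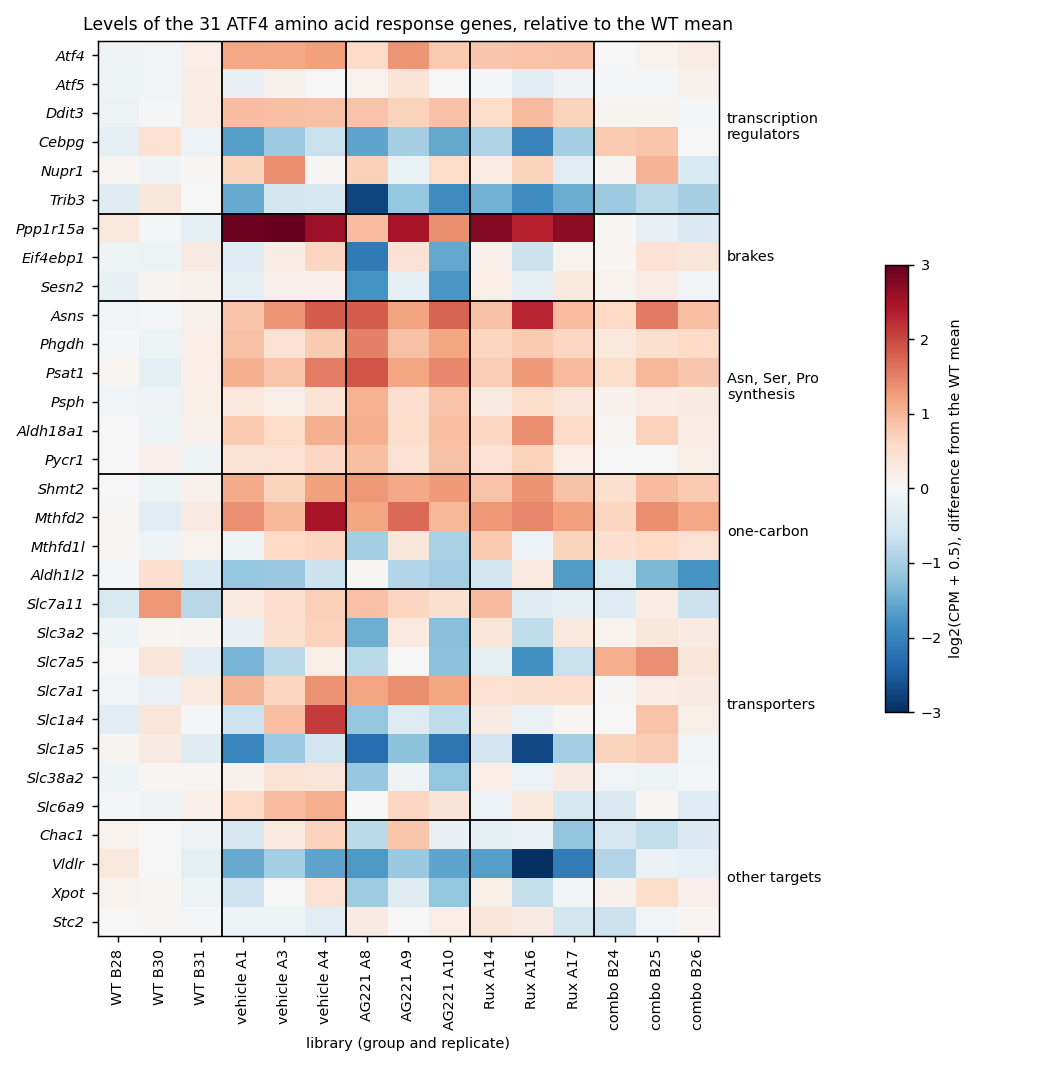
Levels of the 31 genes in the 15 libraries as log2(CPM + 0.5) minus the mean of the 3 WT libraries, grouped by role, with the colour scale ending at 3 in either direction. Atf4, Ddit3 and Ppp1r15a are redder in all 9 libraries named A than in the libraries named B, and AG221 A9 differs from AG221 A8 and A10 in the transporters Slc3a2 and Slc38a2.

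The first comparison asked how untreated JAK2/IDH2-mutant cells differed from WT cells. In vehicle, 12 of the 31 members rose and 2 fell. Over all tested genes 15.4% were called higher and 17.9% lower. Without WT B30 the count of called members was 7, and without vehicle A4 it was 9. The median log2 fold change was 0.36 over the members (0.61 without vehicle A1 and 0.76 with GC content offsets) and -0.09 over all tested genes. GC content offsets also raised the median over all tested genes. The groups did not overlap for 19 members, against 56.9% of all tested genes. The genes that rose were Atf4 and Ddit3 among the 6 transcription regulators, Ppp1r15a among the 3 brakes on translation and growth signaling, 5 of the 6 enzymes of asparagine, serine and proline synthesis, 2 of the 4 mitochondrial one-carbon enzymes and 2 of the 8 transporters.

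Atf4 (ENSMUSG00000042406, chr15:80255184-80257541) stood at 110, 111 and 135 CPM in WT B28, B30 and B31 and at 267, 262 and 276 CPM in vehicle A1, A3 and A4. The lowest vehicle library was well above the highest WT library, and Atf4 rose by 1.18 on the log2 scale (SE 0.16, adjusted p = 0.00079). Its mRNA level is only part of its activity, which is set largely by translation, and no measurement here bears on ATF4 protein. Ddit3, which encodes the stress factor CHOP, stood at 12.3, 13.2 and 16.4 CPM in WT and at 27.0, 26.5 and 25.7 CPM in vehicle, without overlap (log2 fold change 0.92, SE 0.16, adjusted p = 0.00293). Of the exon bases of Ddit3, 4.73% lay opposite exons of other genes and 6.13% were shared with a gene on its own strand, so that part of its count is uncertain because the strand setting of the counting is not stated.

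Cebpg, a partner of ATF4 in binding DNA, went the other way. It stood at 43.0, 70.8 and 45.6 CPM in WT and at 16.2, 24.2 and 32.4 CPM in vehicle (log2 fold change -1.13, SE 0.35, adjusted p = 0.0259). The vehicle libraries were all below the WT libraries. The call was lost without vehicle A1 (adjusted p = 0.1), vehicle A3 (0.0563) or WT B30 (0.122). Trib3, a pseudokinase that restrains ATF4 and CHOP, stood at 9.07, 15.1 and 11.8 CPM in WT and at 3.80, 7.88 and 8.21 CPM in vehicle. All 3 vehicle libraries were below all WT libraries, and the difference did not pass the test (log2 fold change -0.86, SE 0.40, adjusted p = 0.108). Nupr1, a small stress-induced chromatin protein, had a log2 fold change of 0.83 (adjusted p = 0.14), and Atf5, a factor related to ATF4, one of -0.07 (adjusted p = 0.889).

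Ppp1r15a (GADD34), which guides a phosphatase to eIF2 and thereby ends the translational block, had the largest called change of the list. Its level was 70.0, 54.9 and 47.0 CPM in WT and 437, 506 and 339 CPM in vehicle, a log2 fold change of 2.90 (SE 0.34, adjusted p = 0.000215). No vehicle library came near the WT range. Ppp1r15a is also known as an early response gene, and the 12 immediate early genes summed to 877 to 1203 CPM in WT and to 7561 to 16184 CPM in vehicle, 10 of the 12 being called higher and none lower. Their part in the rise of Ppp1r15a was not tested. Eif4ebp1, which blocks cap-dependent translation, and Sesn2, a leucine sensor upstream of mTORC1, had log2 fold changes of 0.20 (SE 0.50) and 0.01 (SE 0.35) that did not pass the test.

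**Figure D2:**
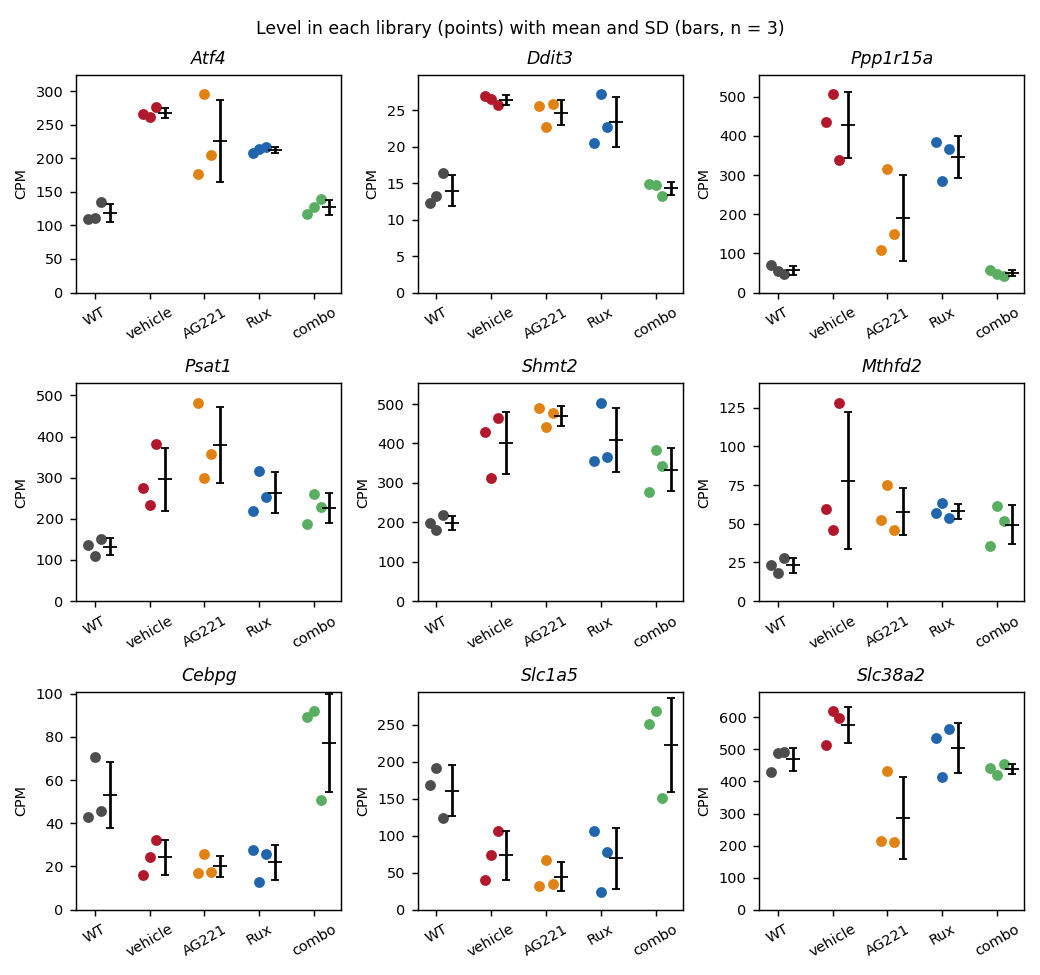
CPM of 9 of the genes in each library, by group, on linear axes that start at 0, with points for libraries and bars for the mean and SD of 3. Atf4 and Ddit3 in combo lie within the WT range or just outside it. The combo means of Psat1 and Shmt2 lie between those of WT and vehicle, and their combo libraries overlap vehicle. Cebpg and Slc1a5 are lowest in the 3 groups named A.

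Of the 3 serine synthesis genes, Psat1 and Phgdh rose and Psph did not pass the test. Psat1, the second enzyme of the serine pathway, stood at 136, 109 and 150.4 CPM in WT and at 274, 233 and 381 CPM in vehicle (log2 fold change 1.17, SE 0.23, adjusted p = 0.00464). The groups did not overlap. Phgdh stood at 271, 256 and 326 CPM in WT and at 524, 380.3 and 488 CPM in vehicle (log2 fold change 0.71, SE 0.17, adjusted p = 0.0103), again without overlap, and its call was lost without WT B30 (adjusted p = 0.0526). Psph, the last enzyme of the pathway, had a log2 fold change of 0.31 (SE 0.15, adjusted p = 0.13), with 10.4% of its exon bases opposite another gene.

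Asns, asparagine synthetase and a standard reporter of the ATF4 response, stood at 53.3, 55.4 and 61.7 CPM in WT and at 103, 143 and 199.8 CPM in vehicle (log2 fold change 1.39, SE 0.37, adjusted p = 0.0158). The 3 WT libraries lay close together and the vehicle libraries spread widely. Without vehicle A4 the adjusted p was 0.0564, and without WT B30 it was 0.0637. In proline synthesis, Aldh18a1, which makes the first intermediate, rose by 0.81 on the log2 scale (SE 0.24, adjusted p = 0.0225), and Pycr1, which makes proline, rose by 0.52 (SE 0.19, adjusted p = 0.0479). The Aldh18a1 call was lost without vehicle A4, WT B28 or WT B30 (adjusted p = 0.0732, 0.055 and 0.0897) and the Pycr1 call without any 1 of the 6 libraries, with adjusted p from 0.0612 to 0.117.

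Shmt2 stood at 197, 181 and 217 CPM in WT and at 428, 312 and 463 CPM in vehicle (log2 fold change 1.02, SE 0.18, adjusted p = 0.00305). Mthfd2, which oxidizes the carbon unit that Shmt2 releases, stood at 23.4, 18.3 and 27.8 CPM in WT and at 59.6, 45.8 and 128 CPM in vehicle (log2 fold change 1.75, SE 0.34, adjusted p = 0.00475). Both were higher in every vehicle library than in any WT library, and vehicle A4 was far above the other vehicle libraries for Mthfd2. Mthfd1l, which releases formate, and Aldh1l2, a mitochondrial formyl-folate dehydrogenase, did not pass the test (log2 fold changes 0.41 and -1.74, SE 0.34 and 1.01), and 14.1% of the exon bases of Aldh1l2 lay opposite another gene.

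Among the transporters, Slc7a1, which carries arginine and lysine, stood at 32.8, 30.2 and 43.1 CPM in WT and at 70.8, 55.1 and 90.02 CPM in vehicle (log2 fold change 1.03, SE 0.18, adjusted p = 0.00322). The groups were well separated. The glycine transporter Slc6a9 rose by 1.06 (SE 0.32, adjusted p = 0.0244) from 1.58 to 1.98 CPM in WT to 2.82 to 4.26 CPM in vehicle, and 30.2% of its exon bases lay opposite other genes. Its call was lost without vehicle A4, WT B28 or WT B30 (adjusted p = 0.0699, 0.0644 and 0.0917). The glutamine transporter Slc1a5 had a log2 fold change of -1.13 (SE 0.48, adjusted p = 0.0829). The other transporters were Slc7a11, which imports cystine, Slc3a2, the heavy chain it shares with Slc7a5, the large neutral amino acid carrier Slc7a5, the alanine, serine and cysteine carrier Slc1a4, and Slc38a2, with log2 fold changes from -0.56 to 1.24, none past the test.

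Of the remaining targets, Vldlr, a lipoprotein receptor, stood at 66.0, 52.1 and 42.7 CPM in WT and at 18.1, 25.8 and 17.4 CPM in vehicle (log2 fold change -1.39, SE 0.38, adjusted p = 0.0173). Every vehicle library was below every WT library, and the call was lost without vehicle A1 or A4 or WT B28 or B30 (adjusted p from 0.055 to 0.0613). Chac1, which degrades glutathione, stood at 0.907, 0.809 and 0.704 CPM in WT and at 0.414, 1.08 and 1.62 CPM in vehicle. Its groups overlapped (log2 fold change 0.36, SE 0.70, adjusted p = 0.708). Xpot, a tRNA export receptor, and Stc2, a secreted glycoprotein, did not pass the test either (log2 fold changes -0.01 and -0.58, SE 0.28 and 0.82).

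With the 3 WT libraries against the 3 vehicle libraries, markers of other cell types moved as well. The 6 mast and basophil markers summed to 75.2 to 152 CPM in WT and to 542 to 1005 CPM in vehicle, the 8 neutrophil markers to 2929 to 3290.5 and 6610.3 to 11212 CPM, and the 8 erythroid markers to 268 to 402 and 669 to 1283 CPM. Mpo and Elane had the largest counts of the neutrophil list, and Car1 of the erythroid list, in each of these libraries. Ly6g, a marker of mature neutrophils, had 3 counts or fewer in all 3 WT libraries and in 1 vehicle library. Of the plasma cell markers 8 of 9 fell in vehicle, and of the mast and basophil markers 5 of 6 rose. Of the neutrophil and of the erythroid markers only 2 of 8 each rose. The part of all these markers in the changes of the amino acid response genes was not tested.

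Other genes of the same stress pathway were counted as lists. Of 20 cytosolic aminoacyl-tRNA synthetases, which load tRNAs with amino acids and several of which are known ATF4 targets, 17 rose in vehicle and none fell, with a median log2 fold change of 0.73. The smallest adjusted p-values were those of Tars (0.92, SE 0.19), Lars (0.97, SE 0.21) and Eprs (0.76, SE 0.17). Of 8 eIF2 and eIF2B subunits 6 rose, Eif2s1, which carries the phosphorylated serine, by 0.96 (SE 0.23). Of 10 eIF2α kinases and their partners none rose and 1 fell, Eif2ak3 (PERK, the kinase of the endoplasmic reticulum), with a log2 fold change of -1.03 (adjusted p = 0.0355).

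Of 12 endoplasmic reticulum chaperones and ATF6 or XBP1 targets, 7 rose and none fell. The chaperone Hspa5 (BiP) rose by 2.11 on the log2 scale (SE 0.16, adjusted p = 3.87e-06) and Hyou1 by 1.87 (SE 0.22). Of 12 cytosolic folate and glutamine enzymes outside the list 4 rose, Got2, Shmt1, Got1 and Tyms. Of 13 tested genes of other stress-responsive or ATF4-linked function, Atf3 and Gdf15 rose and Hmox1 and Txnip fell. Atf3, a repressor induced by many stresses, went from 0.363, 0.404 and 0.235 CPM in WT to 57.6, 46.6 and 48.6 CPM in vehicle (log2 fold change 7.23, SE 0.42, adjusted p = 3.27e-07). It was the clearest separation in these lists.

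**Figure D3:**
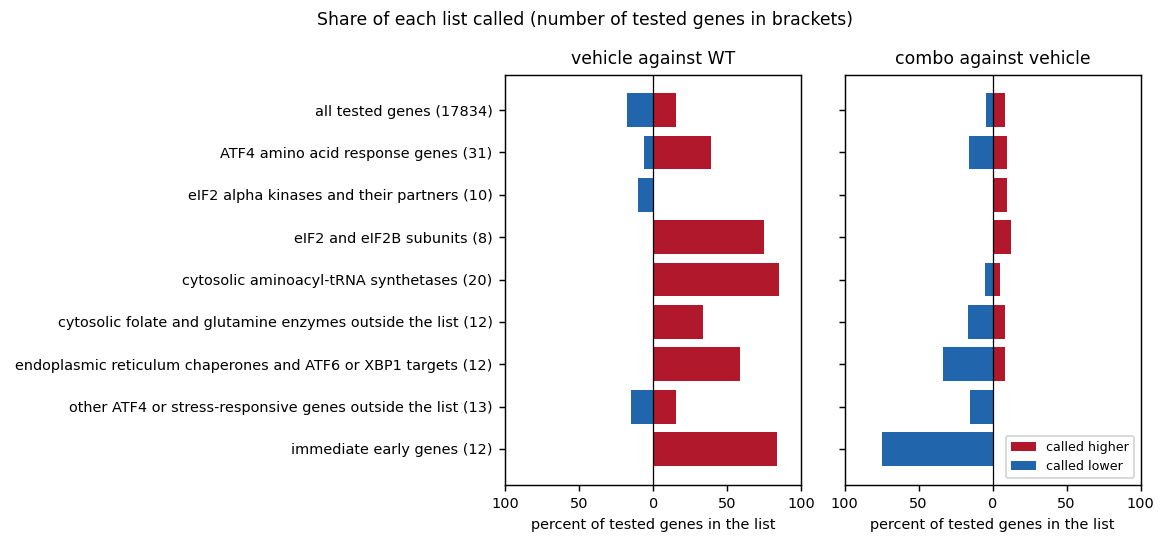
Percent of the tested genes of each list called higher (right) or lower (left) in 2 comparisons, with all 17834 tested genes on top and the number of tested genes in brackets. In vehicle against WT, 12 of the 31 ATF4 amino acid response genes and 17 of the 20 aminoacyl-tRNA synthetases are called higher, and in combo against vehicle 9 of the 12 immediate early genes are called lower.

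The second comparison asked what combined therapy did to these genes in mutant cells. With combo against vehicle 3 members rose and 5 fell, where 8.28% of all tested genes were called higher and 4.21% lower. Without combo B24 the count of called members was 5. The median log2 fold change was -0.30 over the members and 0.04 over all tested genes. The member median was -0.092 without vehicle A4, -0.47 without vehicle A1 and -0.59 with GC content offsets. The median over all tested genes with these offsets is not given here, so that -0.59 cannot be set against 0.04. In this comparison the groups did not overlap for 12 members, against 34.7% of all tested genes. Atf4, Ddit3, Ppp1r15a, Slc7a1 and Slc6a9 fell, and Cebpg, Slc1a5 and Slc7a5 rose. None of the 6 enzymes of asparagine, serine and proline synthesis and none of the 4 mitochondrial one-carbon enzymes passed the test.

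Atf4 was at 116, 127 and 139 CPM in combo B24, B25 and B26, all below the lowest vehicle library (log2 fold change -1.08, SE 0.16, adjusted p = 0.00229). Ddit3 was at 14.8, 14.8 and 13.3 CPM (log2 fold change -0.89, SE 0.16, adjusted p = 0.00406). Both lay close to the WT levels, and the difference of combo from WT was 0.10 for Atf4 (95% interval -0.25 to 0.45) and 0.03 for Ddit3 (95% interval -0.31 to 0.38) on the log2 scale. Ppp1r15a was at 57.5, 47.6 and 41.8 CPM in combo, which overlapped WT and lay below all vehicle libraries (log2 fold change -3.13, SE 0.34, adjusted p = 0.00022). The immediate early genes summed to 808 to 1406 CPM in combo, with 9 of 12 called lower than in vehicle. Their part in the fall of Ppp1r15a was not tested.

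Slc7a1 was at 35.6, 40.9 and 41.9 CPM in combo (log2 fold change -0.87, SE 0.18, adjusted p = 0.00779). Slc6a9 was at 1.15, 1.76 and 1.20 CPM (log2 fold change -1.38, SE 0.32, adjusted p = 0.0138), and its call was lost without combo B24 (adjusted p = 0.0708). Each of the 3 combo libraries was below each vehicle library for both transporters.

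Cebpg was at 89.1, 91.9 and 51.0 CPM in combo, above every vehicle library (log2 fold change 1.67, SE 0.35, adjusted p = 0.00787). Slc1a5 was at 251, 268 and 150.3 CPM against 40.3, 74.3 and 106 CPM in vehicle (log2 fold change 1.60, SE 0.49, adjusted p = 0.0456). Slc7a5 was at 96.1, 117 and 57.5 CPM against 16.6, 25.6 and 50.7 CPM in vehicle (log2 fold change 1.54, SE 0.47, adjusted p = 0.0475). Combo B26 was the lowest combo library and vehicle A4 the highest vehicle library for all 3 genes. The Slc1a5 and Slc7a5 calls were lost without combo B24 or B25 or vehicle A1 or A3, with adjusted p from 0.108 to 0.18 for Slc1a5 and from 0.129 to 0.184 for Slc7a5.

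Of the 10 biosynthetic and one-carbon genes, Psat1, Asns, Phgdh, Shmt2, Mthfd2 and Mthfd1l lay above every WT library and overlapped vehicle with combined therapy. Psat1 was at 188, 261 and 229 CPM in combo (log2 fold change against vehicle -0.39, SE 0.22, adjusted p = 0.295). Asns was at 85.6, 167 and 107 CPM (-0.31, SE 0.37, adjusted p = 0.647). Both ranges overlapped vehicle and lay above the highest WT library. Phgdh at 353, 396 and 427 CPM, Shmt2 at 276, 383 and 342 CPM and Mthfd2 at 35.7, 61.2 and 51.4 CPM did likewise, with log2 fold changes against vehicle of -0.24, -0.27 and -0.65, none past the test. Trib3 was at 5.27, 6.50 and 5.69 CPM and Chac1 at 0.417, 0.276 and 0.463 CPM, with log2 fold changes of -0.19 (adjusted p = 0.819) and -1.43 (adjusted p = 0.243). Pycr1 was at 10.4 to 12 CPM in combo, which overlapped WT and lay below every vehicle library (log2 fold change -0.47, SE 0.19, adjusted p = 0.127). Aldh18a1 was at 161, 253 and 182 CPM, which overlapped both WT and vehicle (-0.47, SE 0.24, adjusted p = 0.237). The other members had log2 fold changes from -0.89 (Slc7a11) to 0.95 (Vldlr), none past the test.

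The other lists of the pathway also moved unevenly. Of the synthetases 1 fell, Iars (log2 fold change -0.80, SE 0.23), and 1 rose, Gars (1.65, SE 0.50, adjusted p = 0.0439). Of the endoplasmic reticulum list Hspa5, Dnajb9, Hyou1 and Calr fell and Edem1 rose. Hspa5 was at 665, 785 and 952 CPM in combo against 3523, 2603 and 2754 CPM in vehicle. Eif2ak3 rose by 1.50 (SE 0.35, adjusted p = 0.0128), as did the eIF2B subunit Eif2b5 by 1.98 (SE 0.42, adjusted p = 0.00866). Atf3 fell by 7.29 (SE 0.42, adjusted p = 1.12e-06), and Gdf15 had a log2 fold change of -2.80 (SE 0.85, adjusted p = 0.0464). Shmt1, the cytosolic counterpart of Shmt2, fell by 0.62 (SE 0.19, adjusted p = 0.0434). In combo the mast and basophil markers summed to 260 to 424 CPM and the neutrophil markers to 3570.0 to 6300.1 CPM. The plasma cell markers summed to 323 to 408 CPM. Each of these sums lay between the WT and the vehicle ranges. The erythroid markers summed to 618, 1611 and 865 CPM in combo B24, B25 and B26, which overlapped vehicle and lay above WT. Called lower than in vehicle were 2 of the 6 mast and basophil markers and 1 of the 8 neutrophil markers. Of the 9 plasma cell markers 1 was called higher, and no erythroid marker was called. The part of these markers in the changes above was not tested.

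**Figure D4:**
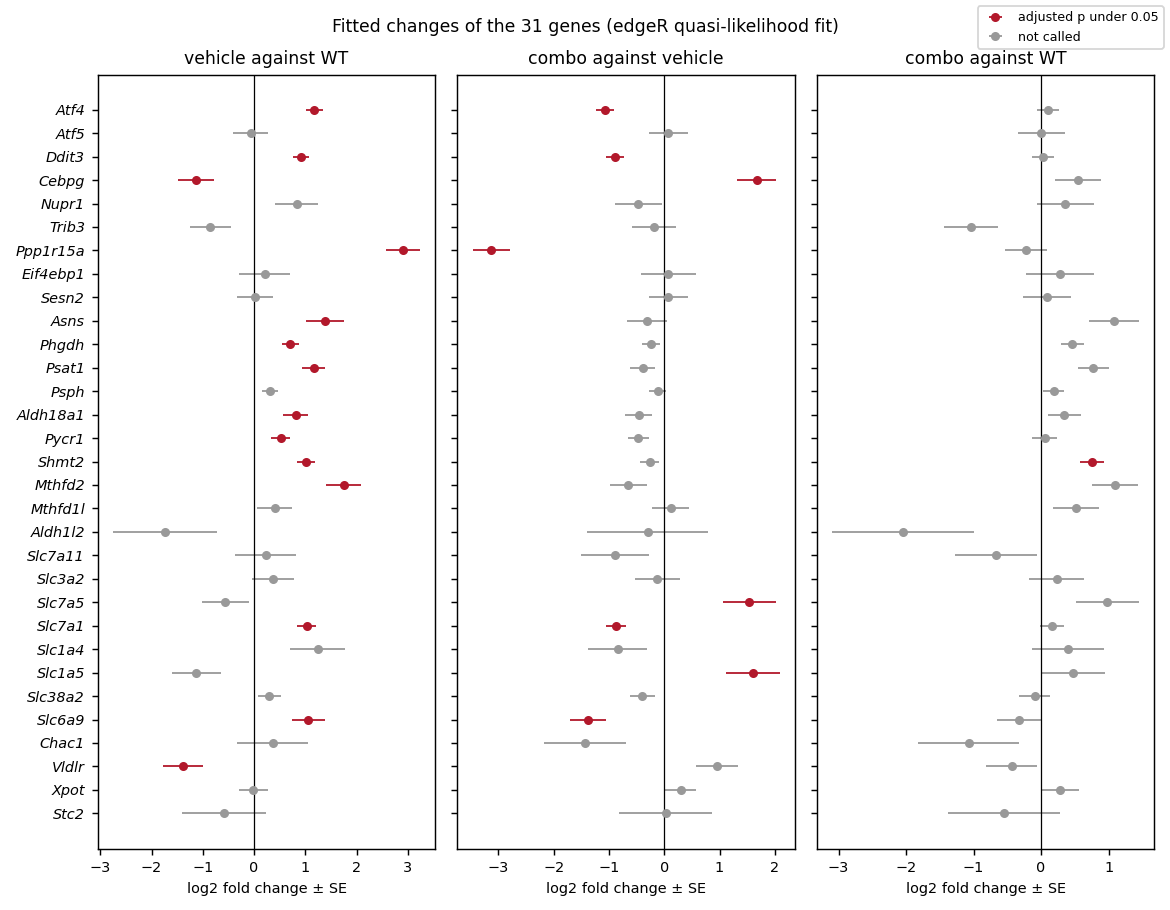
Log2 fold changes with SE of the 31 genes in 3 comparisons, in red where the adjusted p was under 0.05. Atf4, Ddit3, Ppp1r15a, Slc7a1 and Slc6a9 are called higher in vehicle against WT and lower in combo against vehicle, and Shmt2 is the only member called in combo against WT.

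Combo against WT asked what remained after combined therapy. A single member was called, Shmt2, at 276, 383 and 342 CPM in combo against 197, 181 and 217 CPM in WT (log2 fold change 0.75, SE 0.18, adjusted p = 0.0395). Over all tested genes 3.25% were called in either direction. The Shmt2 ranges did not overlap, and no member was called without combo B25 or B26 or any 1 of the WT libraries. The count was 3 with DESeq2, which called 8.24% of the genes it tested, 3 with GC content offsets, and 6 with only the groups compared, where 1788 genes were called in all. The groups did not overlap for 10 members, against 41.6% of all tested genes. Psat1 (0.77, SE 0.22, adjusted p = 0.0686), Mthfd2 (1.09, SE 0.34, adjusted p = 0.0781) and Asns (1.08, SE 0.37, adjusted p = 0.102) had differences as large or larger that did not pass the test.

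In the main edgeR fit of all libraries, neither drug alone changed a member past the test, while other settings called some members with AG221. With AG221 against vehicle edgeR called 0 of 31 members, with 0.987% of all tested genes called, and 10 members had an unadjusted p under 0.05, as did 25.2% of all tested genes. DESeq2 called 7 members and 15.4% of the genes it tested. With Rux against vehicle edgeR and DESeq2 both called 0 members, with 0.0168% of all tested genes called by edgeR and 0.264% by DESeq2, and 5 members had an unadjusted p under 0.05, as did 4.56% of all tested genes. Atf4 was at 208, 213 and 216 CPM with ruxolitinib, below each of the 3 vehicle libraries (log2 fold change -0.34, SE 0.16, adjusted p = 1). Ddit3 was at 20.5, 27.2 and 22.6 CPM (-0.17, SE 0.16), which overlapped vehicle. The smallest adjusted p among the members was that of Slc6a9 (log2 fold change -1.18, SE 0.32, adjusted p = 0.605).

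The AG221 result depended on a single library. Atf4 was at 177, 295 and 205 CPM in AG221 A8, A9 and A10, and Ppp1r15a at 108, 316 and 150.4 CPM. Slc38a2 was at 213, 434 and 210.1 CPM against 514, 619 and 599.8 CPM in vehicle, and Slc3a2 at 55.0, 186 and 62.9 CPM against 129, 213 and 247 CPM. AG221 A9 was nearer to vehicle than A8 and A10 were for these genes. Ddit3 did not follow this split, with 25.5, 22.8 and 25.8 CPM.

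Without AG221 A9, 2 members were called higher and 10 lower than in vehicle, where 7.83% and 16.6% of 19125 tested genes were. The log2 fold change was then -1.46 for Slc38a2 (SE 0.14, adjusted p = 0.000138), -1.89 for Sesn2 (SE 0.23), -1.74 for Ppp1r15a (SE 0.24), -2.04 for Eif4ebp1 (SE 0.33) and -1.74 for Slc3a2 (SE 0.32). Atf4 fell by 0.50 (SE 0.12, adjusted p = 0.0111). Mthfd1l, Trib3, Xpot and Slc1a4 fell as well. Phgdh and Psph, both in serine synthesis, rose by 0.64 each (SE 0.16 and 0.14). Nothing in the labels marks AG221 A9 as different. The count-weighted GC content of the library was 48.9% in AG221 A9 and 48.0% and 48.3% in A8 and A10, against 48.5% to 48.7% in vehicle, and its part in these values was not tested.

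Rux A16 also departed from the other ruxolitinib libraries. Its Slc3a2 was lower than in them, whereas that of AG221 A9 was higher than in AG221 A8 and A10. Slc3a2 was at 198, 90.4 and 189 CPM in Rux A14, A16 and A17, and Slc1a5 at 106, 23.8 and 77.5 CPM. Asns went the other way, at 105, 280.2 and 108 CPM, and so did Aldh18a1 at 241, 410.4 and 231 CPM. The count-weighted GC content was 48.4% in Rux A16 and 49.0% and 48.9% in the other two, and the erythroid markers summed to 3526 CPM in Rux A16 against 945 and 918 CPM. Their part was not tested.

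Adding ruxolitinib to AG221 was addressed by combo against AG221, in which 6 members were called higher and 9 lower, against 18.9% and 14.3% of all tested genes. The lowest adjusted p-values were those of Ppp1r15a (log2 fold change -1.96, SE 0.33), Slc7a1 (-1.09, SE 0.18), Cebpg (1.95, SE 0.35), Atf4 (-0.83, SE 0.16), Ddit3 (-0.79, SE 0.16), Slc1a5 (2.32, SE 0.50), Phgdh (-0.75, SE 0.17) and Psph (-0.63, SE 0.15). Psat1, Pycr1 and Shmt2 were also lower, and Xpot, Sesn2, Slc7a5 and Vldlr higher. In this comparison 4 of the 6 enzymes of asparagine, serine and proline synthesis were called lower and none higher. AG221 had the highest group means of all 5 groups for Phgdh, at 658 ± 142 CPM, Psat1, at 379.8 ± 93.0 CPM, and Psph, at 82.0 ± 15.2 CPM (SD, n = 3). The neutrophil markers summed to 14758 to 17641 CPM in AG221 against 3570.0 to 6300.1 CPM in combo, and their part was not tested. The count of called members was 9 without AG221 A8 and 9 without combo B24.

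Adding AG221 to ruxolitinib was addressed by combo against Rux. Here 4 members were called higher and 3 lower, against 8.5% and 3.94% of all tested genes. Ppp1r15a (log2 fold change -2.82, SE 0.34, adjusted p = 0.00058), Atf4 (-0.74, SE 0.16, adjusted p = 0.00942) and Ddit3 (-0.71, SE 0.16, adjusted p = 0.0102) were lower. Cebpg (1.82, SE 0.35, adjusted p = 0.00484), Vldlr (1.87, SE 0.39, adjusted p = 0.00712), Slc7a5 (1.82, SE 0.48, adjusted p = 0.0228) and Slc1a5 (1.69, SE 0.49, adjusted p = 0.0366) were higher. Without combo B24 the count was 4. No serine, one-carbon or proline gene was called.

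The combo change was also set against the sum of the changes with each drug alone. It departed from that sum for 4 members, 3 upward and 1 downward, where 8.42% of all tested genes departed in either direction. These were Cebpg (departure 2.09 on the log2 scale, SE 0.49, adjusted p = 0.0355), Slc1a5 (2.41, SE 0.68, adjusted p = 0.0474), Vldlr (1.97, SE 0.54, adjusted p = 0.0448) and Ppp1r15a (-1.66, SE 0.45, adjusted p = 0.0435). The count was 0 without AG221 A10, combo B24 or B25, Rux A16 or A17, or vehicle A3 or A4. It was 1 without AG221 A8, 2 without combo B26, 6 without vehicle A1 and 17 without AG221 A9. The share of all tested genes that departed with these libraries left out is not given here. These counts therefore do not set the members apart from other genes.

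With all libraries in the edgeR fit, most calls fell in comparisons that set libraries named A against libraries named B. In the comparisons within a letter, which were AG221 and Rux against vehicle and combo against WT, 0, 0 and 1 members were called, although AG221 against vehicle gave 7 with DESeq2 and 12 without AG221 A9, and combo against WT gave 6 with only the groups compared. Cebpg, Slc1a5 and Vldlr were higher in all 6 libraries named B than in all 9 named A, and Atf4, Ddit3, Ppp1r15a, Pycr1 and Slc7a1 were lower. Of all tested genes 12.5% separated in the same way in either direction. Vehicle against WT, combo against vehicle, AG221 or Rux, and the departure from the sum all set libraries named A against libraries named B. In these comparisons what the letters stand for cannot be told apart from genotype or combined therapy for any gene, the 8 genes above included. Asns, Psat1, Phgdh, Shmt2 and Mthfd2 did not separate by letter, since the combo libraries overlapped with those named A.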

How the data were processed

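The authors aligned paired-end reads to mm10 (GRCm38) with STAR 2.5.1a, per the submitters' processing notes and the paper's methods, and deposited raw counts per Ensembl gene, which were used. Their DESeq2 1.6.3 normalized table was not used. The strand setting and Ensembl release are not given in the sources used here. Libraries had been made by SMARTer amplification without molecular identifiers, so that limits from counts cover counting error only.

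Symbols, positions and lengths came from GENCODE M21, which matched 44585 of 45232 IDs. Genes passing filterByExpr (17834) entered 1 edgeR 4.0.16 quasi-likelihood fit of all 15 libraries (R 4.3.3, TMM, 5 groups, no covariates), with 8 comparisons and Benjamini-Hochberg adjustment over all tested genes. Called means an adjusted p under 0.05. TPM used the merged exon length. The fit was tested on simulated data.

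The members and lists were chosen with earlier results of these data known. Named with values were Atf4, Ddit3, Asns, Trib3 and Chac1, up to 8 called members with the smallest adjusted p per comparison, and up to 4 called genes of each other list in vehicle against WT or combo against vehicle. Slc3a2, Slc38a2, Sesn2, Eif4ebp1 and further members named for AG221 A9 and Rux A16, and the genes plotted by library, were chosen after their values were seen. Alternatives were DESeq2 1.42.0, RLE and upper quartile scaling, other filters, only the groups compared, no immunoglobulin or T cell receptor genes, GC content offsets and leaving out each library. Leaving out genes on chromosomes X and Y was added after seeing the data.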

Additional observations from a re-analysis of the deposited data

Results flagged for a closer look

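The change with combined therapy differed from the sum of the AG221 and ruxolitinib changes, by the interaction test of the edgeR fit, for 4 of the 31 members. The departure on the log2 scale was 2.41 for Slc1a5, 2.09 for Cebpg, 1.97 for Vldlr and -1.66 for Ppp1r15a. All 4 calls were lost when only the groups compared were fitted, with adjusted p from 0.0605 to 0.0791. Groups of 3 libraries were too small for a formal search for single outlying libraries, and none was made. AG221 A9 and Rux A16 were described above from their differences to the other replicates.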

How the results depend on the processing

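With 1 library left out at a time, the number of called members ran from 7 to 13 for vehicle against WT (7 without WT B30, 9 without vehicle A4), 5 to 8 for combo against vehicle, 9 to 20 for combo against AG221, 4 to 7 for combo against Rux, 0 to 1 for combo against WT, 0 to 12 for AG221 against vehicle, 0 in each case for Rux against vehicle and 0 to 17 for the departure from the sum. The median log2 fold change of the members ran from 0.29 to 0.61, -0.47 to -0.092, -0.60 to -0.29, -0.26 to -0.10, 0.12 to 0.29, -0.49 to -0.017, -0.37 to -0.00085 and -0.36 to 0.37 in the same order. The median for combo against vehicle was -0.092 without vehicle A4 and -0.47 without vehicle A1, and for vehicle against WT 0.61 without vehicle A1. The departure median turned negative without AG221 A10 (-0.18), AG221 A8 (-0.18), combo B25 (-0.018), combo B26 (-0.074), Rux A17 (-0.059) or vehicle A4 (-0.36).

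Among the other settings, AG221 against vehicle gave 7 called members with DESeq2, 3 with at least 10 counts in every library, 3 with no filter beyond 1 count, and 2 with GC content offsets or upper quartile scaling. Combo against WT gave 3 with DESeq2 or GC content offsets, 2 with no filter, 6 with only the groups compared, and 0 with at least 10 counts or upper quartile scaling. The departure gave 8 with at least 10 counts or no filter, 12 with DESeq2, 11 with upper quartile scaling (4 upward, 7 downward) and 0 with only the groups compared. GC content offsets gave 6 departures, 3 in each direction. For most of these settings and left-out libraries the share of all tested genes called is not given here. Such counts do not set the members apart from other genes.

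GC content offsets moved the member medians to 0.76 for vehicle against WT, -0.59 for combo against vehicle, -0.86 for combo against AG221, -0.40 for combo against Rux, 0.35 for combo against WT and -0.45 for the departure. For vehicle against WT they also moved the median of all genes from -0.09 to 0.31, so that the member median relative to all genes stayed at 0.45. For the other comparisons the median of all genes with these offsets is not given here. Upper quartile scaling gave medians of -0.80 for combo against AG221, -0.013 for combo against WT and -0.21 for the departure. Combo against AG221 gave -0.29 with at least 10 counts and -0.32 with only the groups compared, and the departure 0.26 with at least 10 counts. For combo against AG221 the split of calls was 4 higher and 12 lower with GC content offsets and 5 higher and 11 lower with upper quartile scaling.

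Of single members, Atf4 in combo against WT was -0.022 with at least 10 counts and -0.099 with upper quartile scaling. Ddit3 in combo against WT was -0.089, -0.031 and -0.17 with at least 10 counts, only the groups compared and upper quartile scaling, and ran from -0.036 (without WT B28) through -0.0048 (without WT B30) to 0.18 over the left-out libraries. Ddit3 in AG221 against vehicle was 0.097 with upper quartile scaling. Chac1 in vehicle against WT was -0.076 without vehicle A4. Single values were followed for the called members in their comparisons, for Atf4 and Ddit3 in all comparisons, and for Asns, Trib3 and Chac1 in vehicle against WT and combo against vehicle. Outside the leave-out settings 520 of these kept their direction and their side of the threshold, 26 lost their call, 4 gained one and 6 changed sign. With 1 library left out, 300 kept both, 103 lost their call, 2 gained one and 3 changed sign. Leaving out genes on chromosomes X and Y, chosen after seeing the data, changed no count of called members. All members lie on other chromosomes, so this setting could not remove an effect of sex on them. The cause of these shifts was not tested, except that leaving out a library leaves fewer samples. No paired analysis was possible because no replicate name is shared between groups.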
